A study of Mus musculus with 108 samples.

Results

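Transfer RNA (tRNA) genes are the short genes that encode the adaptors between codons and amino acids. The RefSeq annotation of GRCm38.p6, the assembly that mm10 represents, lists 386 of them on the autosomes among 37308 autosomal genes of all kinds, and these 386 were taken as they stand, without any filter on their chromatin. A further 17 lie on chromosome X and were used only as an alternative. For each gene the chromatin state was read in the 200 bp bin that holds the gene start, and in the 5 bins on either side of it, about 1 kb each way.

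The states come from ChIP-seq of 4 marks of histone H3 (H3K4me3, H3K27ac, H3K4me1 and H3K27me3) in formalin-fixed, paraffin-embedded livers of inbred C57BL/6 female mice. The group SD 3m received the standard diet and was 3 months old, with 30 libraries. SD 12m received the same diet to 12 months (29 libraries), and CR 12m was kept on 30% caloric restriction from the age of 3 months and was also 12 months old (29 libraries). All mice are of 1 inbred strain and 1 sex, and the group SD 6m was not analysed here. The comparisons ask how the marking of these genes differs with age and with diet. The authors merged the libraries of a group before they segmented the genome, so each group has 1 segmentation, differences could not be set against the spread between mice, and no test was run. Intervals given with shares are 95% Wilson intervals over genes. They cover counting error only and are too narrow where neighbouring genes share a domain. Genes of a set are not replicates of a group. How deeply the merged files were sequenced is unknown. The merged H3K4me3 files hold 7 libraries in SD 3m, 8 in SD 12m and 5 under caloric restriction, those of H3K4me1 hold 8, 6 and 9, those of H3K27ac hold 8, 7 and 9, and those of H3K27me3 hold 7, 8 and 6.

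Each bin carries 1 of 8 states, which the study names by their marks. State 1 (active TSS) has H3K4me3 and H3K27ac, and state 2 (flanking TSS) has H3K4me3, H3K27ac and H3K4me1 together. States 3 and 4 (active enhancers) have H3K27ac without H3K4me3, and state 5 (poised enhancer) has H3K4me1. How states 3 and 4 differ in their marks is not set out in the text of the study. That text describes states 1 to 5 by varied combinations of H3K4me3, H3K27ac and H3K4me1 without listing those of each state. The marks given here for single states among these are therefore less certain. State 6 has H3K27me3, the mark of Polycomb repression, state 7 has weak H3K4me3 in repeats and lamina-associated regions, and state 8 (quiescent) has none of the marks. The label of the tissue was checked at gene starts of known cell types. All 6 hepatocyte markers (Alb, Apoa1, Apob, Fgb, Cyp2e1 and Cps1) lay in states 1 to 5 in each group. Both neuronal markers (Neurod1 and Pax6) lay in state 6 in each group. Among all protein-coding starts of SD 3m, states 1 to 5 held 61.8% and state 6 held 10.1%, so the hepatocyte part is a weak check. States 1 and 2 alone held 1 hepatocyte marker for SD 3m, against 4 for SD 12m and 3 for CR 12m. The tRNA genes described below went the other way, with fewer in states 1 and 2 at 12 months. Of the 9 markers of leukocytes, Kupffer cells, endothelium and bile ducts, 5 lay in states 1 to 5 in SD 3m, then 4 in SD 12m and 3 in CR 12m. How many such cells each liver held was not measured, and in whole liver fewer cells with a mark and less of the mark in each cell cannot be told apart.

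tRNA genes are transcribed by RNA polymerase III from promoters that lie inside the gene. The factor TFIIIC binds the internal A box and B box and places TFIIIB just upstream of the start, TFIIIB recruits the polymerase, and a run of T after the gene ends transcription. Genes with the same anticodon form a family, in which many copies have identical sequence. Apart from introns, such copies are distinguished by their surroundings rather than by the gene itself. Nucleosomes beside transcribed tRNA genes are known to carry marks otherwise found at promoters of RNA polymerase II.

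The 386 genes code for 20 amino acids with 48 anticodons. They are 70 to 107 bases long with a median of 72, and 22 of them have an intron. The annotated anticodon was found at its stated place in all 386 sequences. In 12 genes the letters within the symbol differ from that anticodon, which is the one used here. Without introns the genes have 204 distinct sequences, and 237 genes belong to 55 families of identical copies, the largest with 29. When starts within 5 kb of each other were joined, the genes formed 196 loci, of which 120 held a single gene and the largest held 15.

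Sequences are shown here for the families on which the results turn, all from the RefSeq reference, 5′ to 3′ on the strand of the gene. In these, capitals mark the anticodon and, after it, the letters GTTCNANNC of the B box where the gene holds them. The methionine genes fall into an elongator form, here n-TMcat14 (chr13:21167604-21167676, plus strand), and the initiator form that starts translation, here n-TMcat11 (chr3:90475860-90475931, minus strand), which lacks these B box letters. The tyrosine gene n-TYgta3 (chr13:23425646-23425734, minus strand) has an intron of 16 bases just after its anticodon region. The aspartate gene n-TDgtc4 (chr1:171037029-171037100, minus strand) stands for the families whose identical copies lie in unlike chromatin.
n-TMcat14: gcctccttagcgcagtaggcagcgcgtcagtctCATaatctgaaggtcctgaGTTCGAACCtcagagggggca
n-TMcat11: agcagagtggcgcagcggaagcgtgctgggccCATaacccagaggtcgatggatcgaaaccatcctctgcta
n-TYgta3: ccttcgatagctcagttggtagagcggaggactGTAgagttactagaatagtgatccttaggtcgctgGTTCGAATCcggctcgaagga
n-TDgtc4: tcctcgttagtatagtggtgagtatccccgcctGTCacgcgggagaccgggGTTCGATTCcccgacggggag

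The next set shows a pair of like sequence and unlike chromatin and a lone gene in state 8, again with anticodon and B box letters in capitals. The cysteine gene n-TCgca37 (chr6:48133937-48134008, plus strand) is a copy of the tandem family on chromosome 6, which lay almost wholly in states 6 to 8, and n-TCgca55 (chr11:97988246-97988317, minus strand) is a cysteine gene that lay in state 1 in all 3 groups. With positions counted from 1 at the 5′ end of the gene, the step from n-TCgca55 to n-TCgca37 takes 3 substitutions (T16G, C50T and G62A). The glutamate gene n-TEctc2 (chr12:42415075-42415146, minus strand) keeps the B box letters and was in state 8 in all groups.
n-TCgca37: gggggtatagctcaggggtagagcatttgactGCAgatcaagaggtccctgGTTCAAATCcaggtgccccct
n-TCgca55: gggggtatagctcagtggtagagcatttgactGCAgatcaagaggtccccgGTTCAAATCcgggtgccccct
n-TEctc2: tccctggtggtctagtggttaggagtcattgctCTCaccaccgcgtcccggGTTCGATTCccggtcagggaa

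The B box letters GTTCNANNC were found on the strand of the gene in 354 of the 386 tRNA genes (91.7%). In windows of the same 107 bases from the start of the 36922 other autosomal genes, they were found on that strand in 1.62% and on either strand in 3.34%. The letters TTTT followed within 40 bases after the end of 340 tRNA genes (88.1%) and of 32.4% of the other genes. States 1 to 5 held 57.6% of the 354 tRNA genes with the B box letters and 16 of the 32 without them in SD 3m.

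In SD 3m, tRNA genes divided into a larger marked and a smaller unmarked or repressed group. State 1 held 66 starts, state 2 held 106, states 3 to 5 held 48, state 6 held 69, state 7 held 2 and state 8 held 95. States 1 and 2 together, the states with strong H3K4me3, held 172 of 386 starts (44.6%, interval 39.7 to 49.5), against 42.7% of the starts of protein-coding genes, 28.5% of the starts of all genes, 11.2% of those of long non-coding RNA genes, 4.76% of those of snRNA genes and 1.63% of all autosomal bins. State 2 was the most frequent state at tRNA genes, with 27.5% (interval 23.2 to 32.1), against 11.8% at protein-coding genes and 8.83% at all gene starts, whereas state 1 held 17.1% of tRNA genes and 30.8% of protein-coding genes. State 2 was thus called at the start of a tRNA gene more often than state 1, the reverse of the order at protein-coding genes. Single marks were not read at these starts. State 2 also exceeded state 1 at snoRNA genes (109 against 12), at snRNA genes (31 against 13) and over all bins (1.20% against 0.429%). State 6 held 17.9% of tRNA genes and 10.1% of protein-coding genes.

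**Figure D1:**
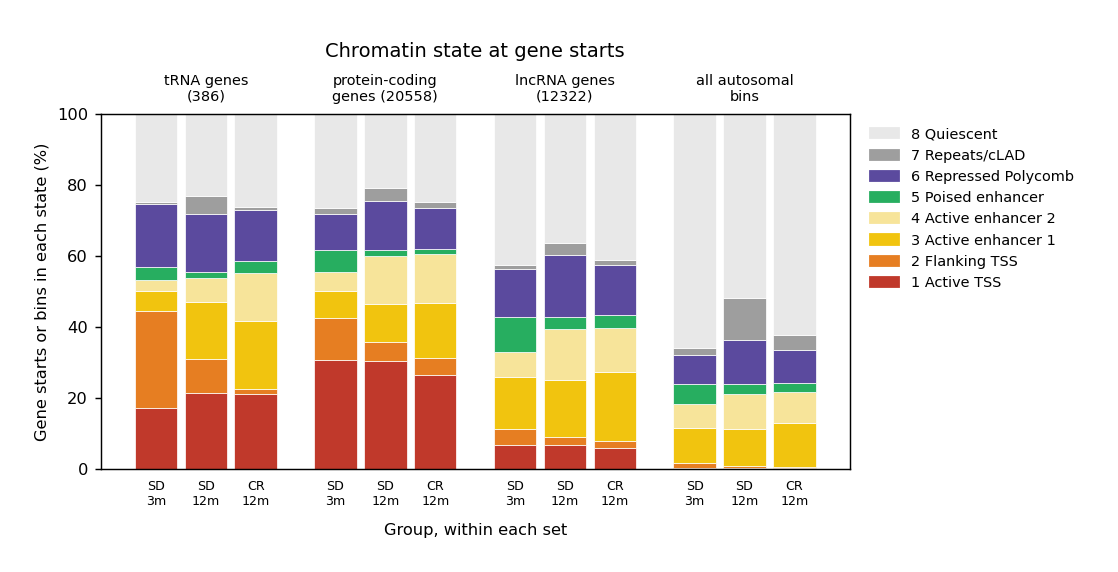
Stacked bars give the percent of gene starts (or of all autosomal 200 bp bins) in each of the 8 states, 1 bar for each group and set, with the number of genes above. States 1 and 2 took 44.6% of tRNA genes in SD 3m, 31.1% at 12 months on the standard diet and 22.5% under caloric restriction, while states 1 to 5 together held 57.0%, 55.7% and 58.5%.

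At 12 months fewer tRNA genes lay in the states with strong H3K4me3. States 1 and 2 held 120 starts in SD 12m (31.1%, interval 26.7 to 35.9) and 87 in CR 12m (22.5%), against 172 in SD 3m. Over all gene starts these shares were 28.5% in SD 3m, against 23.5% in SD 12m and 20.7% in CR 12m, so they were lower there as well, by less. The enhancer states 3 to 5, which lack H3K4me3, held 48 tRNA genes in SD 3m (12.4%), 95 in SD 12m (24.6%) and 139 under caloric restriction (36.0%). The sum of states 1 to 5 hardly moved, with 220, 215 and 226 genes. The merged H3K4me3 files hold 7, 8 and 5 libraries, the fewest in CR 12m, and the part of their number and depth in these shares was not tested.

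Most tRNA genes in states 1 to 5 in SD 3m were still in these states at 12 months, where 114 of the 220 had the very same state in SD 12m and 72 in CR 12m. Of the 172 starts in states 1 and 2 in SD 3m, 53 had left both states in SD 12m (30.8%, interval 24.4 to 38.1), while 20.4% of all gene starts in these states did. In CR 12m 85 had left (49.4%, interval 42.0 to 56.8), while 29.8% of all gene starts did. The 2 sets differ in their starting states, with 106 of the 172 tRNA genes but 3296 of the 10627 gene starts in state 2. State 2 was left more often than state 1 in both sets, as given below. The part of this in these and the later comparisons of such losses was not tested. Smaller sets of non-coding genes left these states at least as often in SD 12m, with 31.4% of the 118 miRNA genes in them, 48.8% of 121 snoRNA genes and 72.7% of 44 snRNA genes, and in CR 12m the shares were 38.1%, 45.5% and 72.7%. Entry was rare. Of the 214 other tRNA genes 1 was in state 1 or 2 in SD 12m (0.467%, against 1.19% of all gene starts outside these states) and 0 of 214 in CR 12m, which allows a share of up to 1.76% by the Wilson interval, against 0.922% of all gene starts. Departure from states 1 to 5 altogether was as rare as elsewhere. Of the 220 tRNA genes in these states in SD 3m, 9 had left them in SD 12m (4.09%, all gene starts 4.9%) and 9 in CR 12m (4.09%, all gene starts 5.55%). The 2 comparisons share SD 3m, so an error in that segmentation enters both.

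State 2 accounts for most of the departures. The 106 tRNA genes that began in state 2 divided at 12 months. On the standard diet 36 kept state 2, 30 passed to state 1, 39 to state 3 and 1 to state 5. Under caloric restriction 5 kept it, 42 passed to state 1, 49 to state 3 and 10 to state 4. Single destinations from states 1 and 2 over all gene starts are not given here, so this split is not shown to be particular to tRNA genes. The share that left state 2 was 66.0% in SD 12m (all gene starts 61.1%) and 95.3% in CR 12m (interval 89.4 to 98.0, all gene starts 68.3%). Genome-wide, state 2 covered 1.20% of autosomal bins in SD 3m, 0.452% in SD 12m and 0.385% under caloric restriction. Of the 66 tRNA genes in state 1 in SD 3m, 14 had left it in SD 12m (21.2%, all gene starts 17.5%) and 26 in CR 12m (39.4%, all gene starts 27.3%), of which 20 went to state 4.

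Over all 8 states, 151 tRNA genes of SD 12m differed from SD 3m (39.1%, interval 34.4 to 44.1), against 31.9% of all bins and 33.2% of all gene starts. In CR 12m 206 had another state than in SD 3m (53.4%, interval 48.4 to 58.3), against 24.2% of all bins and 33.9% of all gene starts. Caloric restriction thus stood farther from the young group than the standard diet did at tRNA genes, whereas over all bins it stood nearer. The direction was shared, by less, at protein-coding starts (35.8% in CR 12m, 33.5% in SD 12m) and miRNA starts (33.7% and 30.7%). It was the reverse at long non-coding RNA starts (32.7% and 34.4%), snRNA starts (28.2% and 32.4%) and snoRNA starts (21.6% and 25.2%). Between the 12-month groups, 43 of the 120 genes in states 1 and 2 in SD 12m were in neither in CR 12m (35.8%, interval 27.8 to 44.7, all gene starts 18.3%). The same state in all 3 groups was found at 154 tRNA genes (39.9%) and at 55.9% of all gene starts. Read from SD 3m through SD 12m to CR 12m, the most frequent sequences of states were state 8 throughout (61 genes), state 1 throughout (36), state 6 throughout (33), state 2 then 3 and 3 (30), state 2 then 1 and 1 (23) and state 2 then 2 and 3 (19). States 1 to 5 were kept in all 3 groups by 207 genes (53.6%, all gene starts 48.8%), states 6 to 8 by 150 (38.9%, all gene starts 43.3%), and 29 genes crossed between them (7.51%, all gene starts 7.97%).

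**Figure D2:**
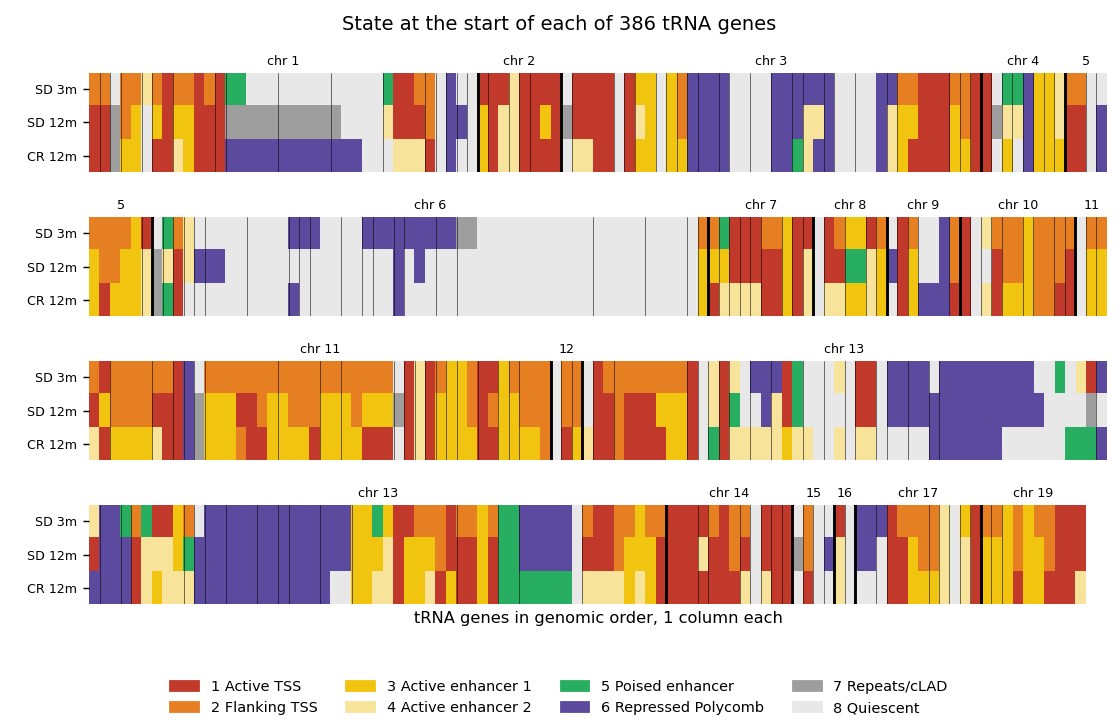
Each column is 1 tRNA gene, in genomic order over 4 rows, and the 3 lines of a row give its state at the gene start in SD 3m, SD 12m and CR 12m. Thick lines separate chromosomes (named above) and thin lines separate loci of genes within 5 kb. The long pale and purple stretch on chromosome 6 is the cysteine family, and much of the long orange stretch of chromosome 11 in SD 3m is red or yellow in the lines below.

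The marks were centred on the genes. In SD 3m states 1 and 2 held 45.3% of the bins just before the start, 44.6% of the start bins, 20.7% of the bins 2 kb before and 11.9% of those 5 kb before. In SD 12m the same positions held 34.5%, 31.1%, 7.77% and 5.18%, and in CR 12m 25.4%, 22.5%, 6.22% and 4.66%. The peak was therefore lower at 12 months and also narrower, and in each group the share 200 bp before the start was a little above that at the start. The same profile was not made for other kinds of genes. States 3 to 5 had the opposite profile, with a dip at or just before the gene (at the start 12.4% in SD 3m, then 24.6% in SD 12m and 36.0% in CR 12m) and 35.2%, 44.3% and 45.9% at 5 kb before it. State 6 had no peak, with 17.9% at the start and 21.5% at 5 kb before it in SD 3m.

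For the 77 tRNA genes in states 1 and 2 in all 3 groups, the unbroken stretch of these states through the start had a median of 3800 bp in SD 3m, against 2200 bp in SD 12m and 1600 bp in CR 12m. Within 1 kb of the start these genes had a median of 11 of 11 bins in states 1 and 2 in SD 3m, 8 in SD 12m and 7 under caloric restriction, while the medians of state 1 alone were 4, 5 and 6. The stretch of states 1 and 2 was thus shorter at 12 months, with more of it in state 1. This stretch was not measured at other kinds of genes. The paper reports wider H3K4me3 peaks in young mice over all annotated transcription start sites, so the difference is not shown to be particular to tRNA genes. For the 22 of these genes that lie at least 5 kb from the start of any other kind of gene, the medians of the stretch were 2200, 1500 and 1200 bp.

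**Figure D3:**
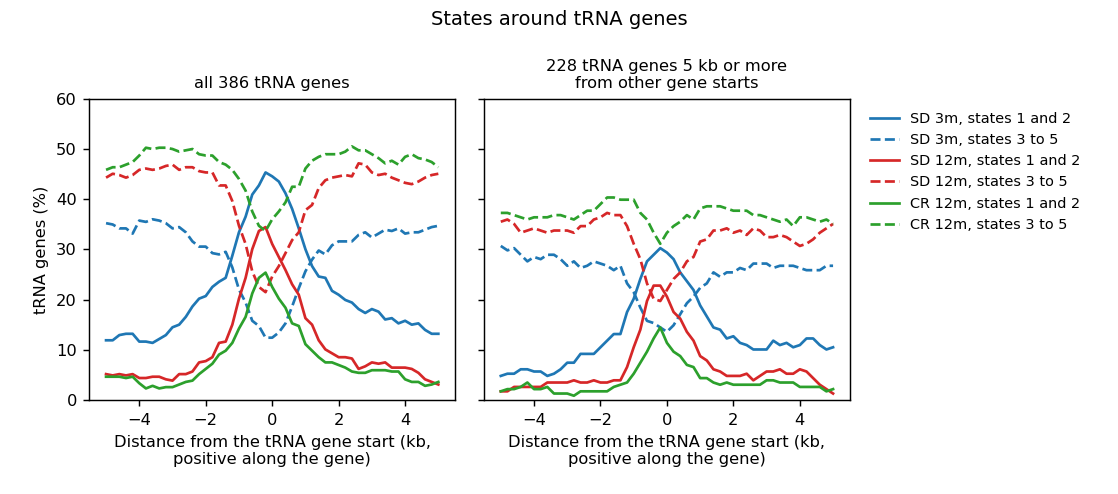
Lines give the percent of tRNA genes whose bin at each distance from the gene start (kb, positive along the gene) is in states 1 and 2 (solid) or in states 3 to 5 (dashed), for the 3 groups. The solid lines peak at the gene at 45.3% in SD 3m, then 34.5% in SD 12m and 25.4% in CR 12m, and the dashed lines dip there. The right panel shows the 228 genes at least 5 kb from other gene starts, in which the same order holds with lower peaks.

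Proximity to other genes went with these states. Of the 73 tRNA genes whose start lies under 1 kb from the start of a gene of another kind, 76.7% were in states 1 and 2 in SD 3m, and the shares were 57.6% of 85 genes at 1 to 5 kb, 38.4% of 164 at 5 to 20 kb and 6.25% of 64 at 20 kb or more. At such distances the marks of a promoter of RNA polymerase II and those of the tRNA gene cannot be told apart. Among the 228 genes at least 5 kb away, 29.4% were in states 1 and 2 in SD 3m, against 20.6% in SD 12m and 11.4% in CR 12m, so the order of the groups was the same without such neighbours. Among these 228, the state of the nearest protein-coding start still went with that of the tRNA gene. Where that start was in states 1 and 2 in SD 3m, 60 of 81 tRNA genes were in states 1 to 5 (74.1%), and where it was in states 7 and 8, 14 of 57 were (24.6%). Where it was in state 6, 7 of 24 were (29.2%), and 13 of 24 were in state 6 themselves.

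CpG dinucleotides, which are the sites of DNA methylation and are dense at most active promoters, also varied with the states. In SD 3m, states 1 and 2 held 1 of the 76 tRNA genes with 0 to 2 CpG in the start bin (1.32%), 30.2% of the 53 with 3 to 5, 55.7% of the 122 with 6 to 9, and 64.4% of the 135 with 10 or more. The order was kept in CR 12m, with 0 of 76, 9 of 53, 33 of 122 and 45 of 135 genes. The 49 cysteine genes of chromosome 6 had a median of 0 CpG and make up much of the lowest class. Among the 172 genes in states 1 and 2 in SD 3m, those that kept these states in all groups (77) had a median of 10 CpG, those that left them only in CR 12m (42) had 10, those that left them only in SD 12m (10) had 8, and those that left them in both 12-month groups (43) had 9, so CpG content hardly separated them.

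Many tRNA genes hold sequence that recurs elsewhere in the genome. Reads of 50 bp that map equally well to several places have a mapping quality of 0 and were removed by the authors. In the median tRNA gene 87.5% of the 50-base words in the start bin and 97.1% of those within 1 kb occur only at that place in the assembly. In 44 genes fewer than 50% of the words in the start bin are unique, and none of these 44 was in state 1 or 2 in any group. With only the 342 others, states 1 and 2 held 50.3% in SD 3m, 35.1% in SD 12m and 25.4% under caloric restriction.

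By amino acid, fewer genes were in states 1 and 2 in SD 12m than in SD 3m for 17 of 20 amino acids and as many for the other 3 (Cys, Met and Phe). In CR 12m fewer were for 19 of 20, with as many for histidine (4 of 11 in SD 3m, then 3 in SD 12m and 4 in CR 12m). Between the 12-month groups, CR 12m had fewer than SD 12m for 13 amino acids, as many for 6 and more for 1, so that the full order of the groups held for 10 of 20. Asparagine had the steepest differences, with a single anticodon and 13 genes, of which 6 were in states 1 and 2 in SD 3m, against 1 in SD 12m and 0 in CR 12m, while 6 were in states 1 to 5 in each group. Arginine genes numbered 17 of 23 in SD 3m, 14 in SD 12m and 7 under caloric restriction, and threonine genes 10 of 17, 7 and 3. Proline (10 of 15, 8 and 8) and leucine (17 of 25, 12 and 12) had the same number under both diets. The 10 tyrosine genes all have an intron, and all 10 were in states 1 to 5 in each group.

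**Figure D4:**
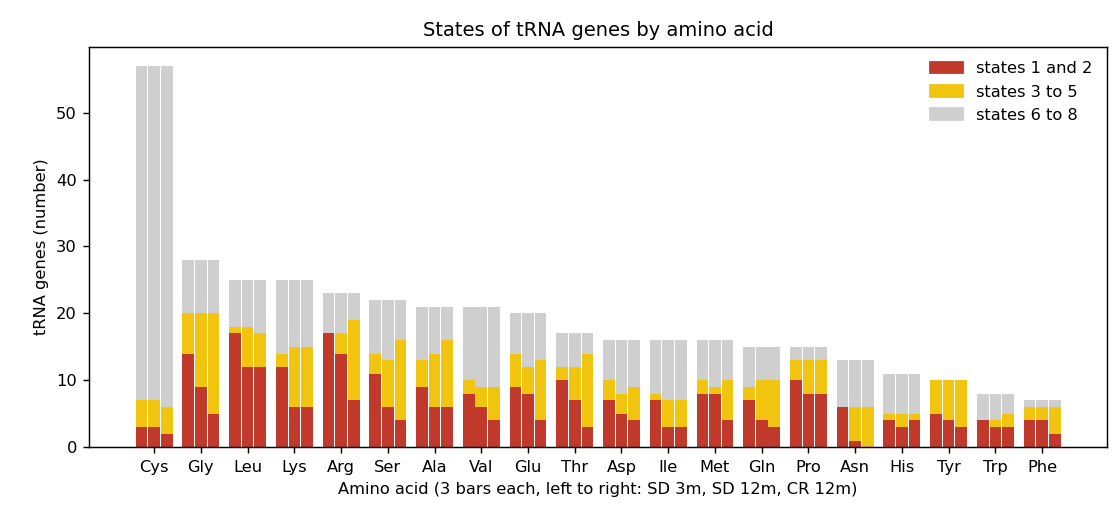
Bars give the number of tRNA genes of each amino acid in states 1 and 2 (red), 3 to 5 (yellow) and 6 to 8 (grey), with SD 3m, SD 12m and CR 12m from left to right. The red parts shrink for most amino acids while the sum of red and yellow hardly changes, as for asparagine (6, 1 and 0 red of 6 marked in each group).

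Almost every anticodon kept a marked gene. At least 1 gene in states 1 to 5 was found for 47 of the 48 anticodons in each group, the exception being the single histidine gene with anticodon ATG. With states 1 and 2 alone, 46 anticodons had a gene in SD 3m, then 44 in SD 12m and 41 in CR 12m.

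Identical copies lay in different chromatin. Of the 55 families of identical sequence without introns, 20 (36.4%) held both copies in states 1 to 5 and copies in states 6 to 8 in SD 3m. Another 26 lay wholly in states 1 to 5 and 9 wholly in states 6 to 8. The 20 divided families had 109 copies, 69 in states 1 to 5 with a median of 10 CpG in the start bin and 40 in states 6 to 8 with 10.5. When only copies with at least 50% unique words were kept, 17 families and 79 copies remained divided, with medians of 9 and 8.5 CpG. The median distance to another gene start was then 4309 bp for the 55 copies in states 1 to 5 and 9654 bp for the 24 others. Over all 109 copies of the 20 families these medians were 4309 and 6820 bp. By the median within a family, copies in states 1 to 5 were nearer in 12 of the 17 families and in 13 of the 20. By the same measure, copies in states 1 to 5 had more CpG in 11 of the 17 families and less in 6. Over the 20 families they had more in 9 and less in 11, so the direction for CpG content depended on the subset. The gene sequence without introns is the same within a family. Introns, where present, were not compared.

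The isoleucine family with anticodon AAT illustrates this with 8 copies on 3 chromosomes. The young livers had 4 copies in state 2, 1 in state 1 and 3 in state 6. The copy n-TIaat5 on chromosome 11 was in state 2, then 3 and 3. The copy n-TIaat6 on chromosome 12 was in state 2, then 2 and 3, and n-TIaat9 on chromosome 13 was in state 6 in all groups. Their start bins hold 12, 10 and 12 CpG.

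**Figure D5:**
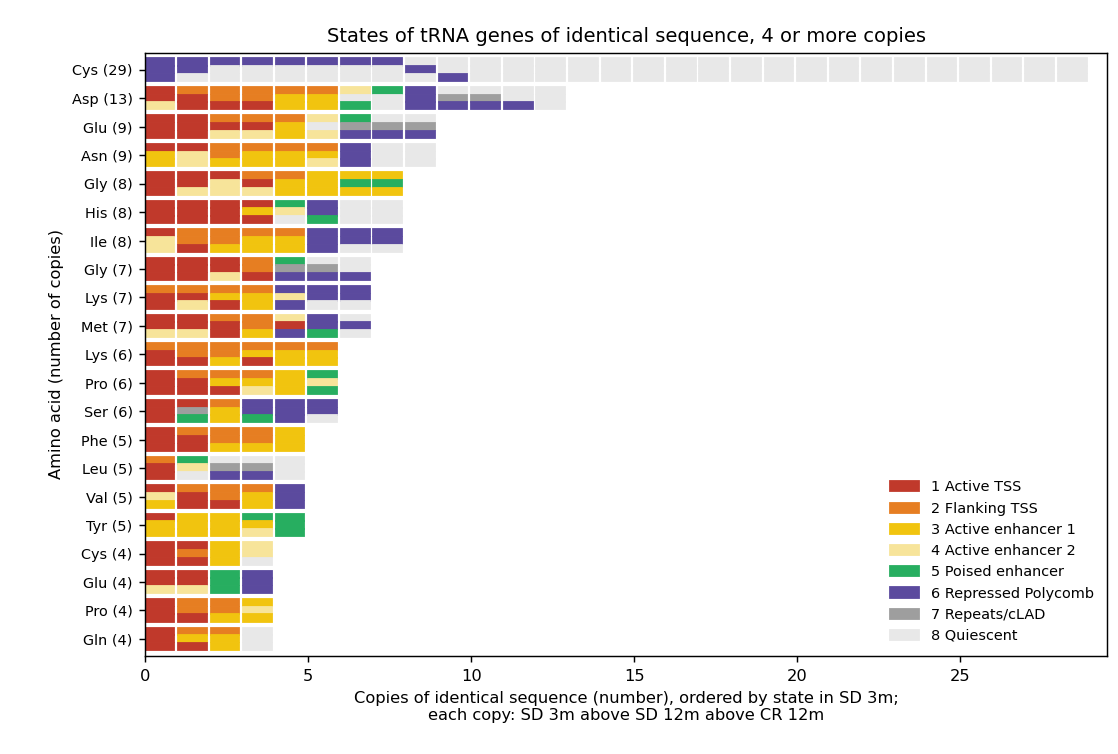
Each row is a family of at least 4 tRNA genes of identical sequence without introns, named by amino acid and number of copies. Each column of 3 boxes is 1 copy with its state in SD 3m (top), SD 12m (middle) and CR 12m (bottom). Families such as isoleucine with 8 copies hold copies in state 2 and copies in state 6, while all 6 copies of the second lysine family were in state 2 in SD 3m.

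The aspartate family with anticodon GTC, whose sequence is given above, has 13 copies on 5 chromosomes. The young livers had 1 copy in state 1, 5 in state 2, 1 each in states 4, 5 and 6, and 4 in state 8. Of the lysine family with anticodon TTT, all 6 copies on 4 chromosomes were in state 2 in SD 3m. On the standard diet 2 of these kept state 2, 1 passed to state 1 and 3 to state 3, and under caloric restriction 3 passed to state 1 and 3 to state 3, so that none had left states 1 to 5.

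The methionine genes, named whatever their state, number 16. The initiator family of 7 identical copies, whose sequence is given above as n-TMcat11, was divided. n-TMcat11, 270 bp from the start of Ilf2, passed from state 2 in SD 3m and SD 12m to state 3 in CR 12m. n-TMcat6 and n-TMcat7 on chromosome 13 were in state 1 in SD 3m and SD 12m and in state 4 in CR 12m, where none of their 11 bins remained in states 1 and 2 (10 bins each in SD 3m). n-TMcat9 was in state 2 and then in state 1 in both 12-month groups. n-TMcat5 was in state 6, 6 and 5, with 11, 11 and 0 bins of state 6 within 1 kb, and n-TMcat10 in state 8, 6 and 8. n-TMcat8 (chr13:21975032, plus strand) was in state 4, 1 and 6, and was the only tRNA gene of all 386 that entered states 1 and 2 in SD 12m. Counting 2 further genes that begin with the same 7 bases, states 1 and 2 held 4 of 9 initiator genes in SD 3m, against 5 in SD 12m and 1 in CR 12m, while states 1 to 5 held 5 of 9 in each group. The 7 elongator methionine genes had 4, 3 and 3 in states 1 and 2. The selenocysteine tRNA gene was not analysed here.

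Stable marking was clearest at 15 genes that were in state 1 in all groups and lie at least 5 kb from other gene starts. How many genes of other kinds meet the same rule was not counted. State 1 was kept in SD 12m by 78.8% of the tRNA genes that began in it, against 82.5% of all gene starts. In CR 12m these shares were 60.6% and 72.7%, so keeping state 1 is not particular to tRNA genes. Of the 15 genes, the 6 with most bins of state 1 lie in 3 loci. n-TPagg4 (proline, chr14:51064814, minus strand) had 10 of 11 bins in state 1 in SD 3m, 9 in SD 12m and 10 under caloric restriction, and its neighbour n-TTtgt3 (threonine) had 8, 7 and 8. Their nearest protein-coding gene is Olfr750, which encodes an olfactory receptor. n-TEctc11 (glutamate) on chromosome 13, whose nearest protein-coding gene is Olfr1368, had 7, 9 and 9. On chromosome 3, n-THgtg8 (histidine) had 4, 9 and 11 bins in state 1, n-TGtcc7 (glycine) 4, 10 and 10, and n-TEctc13 (glutamate) 4, 9 and 9. At these 3 genes all 11 bins were in states 1 and 2 in each group, except for 1 bin of n-THgtg8 in SD 12m, so that the share of state 1 grew at the expense of state 2.

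Loss in both 12-month groups was found at 43 of the 172 genes (25%, all gene starts 16.6%), and the 6 that lost most bins form 3 sites. The locus at chr11:69037003-69041897 holds 7 genes for 7 amino acids, all in state 2 in SD 3m. Its genes n-TIaat5, n-TSaga4 (serine) and n-TTagt8 (threonine) had 11 of 11 bins in states 1 and 2 in SD 3m and 0 in both older groups, in which they lay in state 3. The other 4 genes of the locus were in states 1, 1, 2 and 3 in SD 12m and in states 2, 1, 1 and 3 in CR 12m, so that a locus of under 5 kb was split. The locus at chr13:21167604-21172942, with 7 genes all in state 2 in SD 3m, was split in the same way. Its genes n-TQctg7 (glutamine) and n-TLcaa4 (leucine) went from 11 bins in states 1 and 2 to 0 and 0, while n-TMcat15 in the same locus kept 8 bins in SD 12m and 9 in CR 12m. n-TRcct2 (arginine, chr17:23548768, minus strand) went from 11 bins to 1 and 0.

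A loss under caloric restriction alone was found at 42 of the 172 genes (24.4%, all gene starts 13.2%), and a loss in SD 12m alone at 10 (5.81%, all gene starts 3.85%). The 3 that lost most under caloric restriction alone were n-TTtgt2 (threonine) and n-TLaag6 (leucine), in 1 locus of chromosome 11 with Irgm1 as the nearest gene of another kind, and n-TIaat6 on chromosome 12. They had 11, 11 and 11 bins of states 1 and 2 in SD 3m, then 11, 10 and 10 in SD 12m and 0 under caloric restriction, where all 3 were in state 3. Conversely n-TKctt27 (lysine), 169 bp from the start of Aloxe3, had 11 bins in SD 3m, then 2 in SD 12m and 7 in CR 12m. n-THgtg3 (histidine), inside the annotated non-coding gene Gm39918, had 11, 4 and 9, and n-TAtgc9 (alanine), inside Trim7, had 11, 3 and 3 with state 1 at the start in CR 12m. No gene entered states 1 and 2 in both older groups.

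Polycomb-marked tRNA genes were concentrated on chromosome 13. This chromosome has 105 tRNA genes, 59 of them between 21160785 and 22050767 and 45 between 23270421 and 23530419, the region of the large histone gene cluster. In SD 3m 38 of the 105 were in state 6, against 31 of the 281 on other autosomes, and 35 were in states 1 and 2 (33.3%, against 48.8% elsewhere). The state 6 genes elsewhere were not spread evenly. They include 12 of the 49 cysteine genes of chromosome 6 and genes at several loci of chromosome 3 between 96322074 and 96479462. Of the 69 state 6 tRNA genes of all autosomes, 17 had left the state in SD 12m (24.6%, all gene starts 32.2%) and 33 in CR 12m (47.8%, interval 36.5 to 59.4, all gene starts 37.8%). Of the 33, 22 were found in state 8, 6 in state 5 and 5 in state 4. The largest locus, with 15 genes at chr13:21907111-21940995, had 9 genes in state 6 in SD 3m, against 10 in SD 12m and 6 in CR 12m, and its single gene in state 1 in SD 3m, n-TSaga8, was in state 7 and then in state 5. At chr13:23498106-23506590, 5 of 6 genes passed from state 6 in SD 3m and SD 12m to state 5 in CR 12m, the poised state with H3K4me1. The third largest locus (chr13:23425646-23438768, 10 genes including 5 tyrosine genes) was in states 1 to 5 in all groups, with 6 genes in states 1 and 2 in SD 3m, 3 in SD 12m and 2 under caloric restriction.

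The cysteine genes of chromosome 6 lay mostly in state 8. There are 49 between 47978997 and 48363603, including the locus of 13 at chr6:48288876-48317586. None was in state 1 or 2 in any group. State 8 held 34 in SD 3m, then 43 in SD 12m and 47 in CR 12m, state 6 held 12, 5 and 2, and states 1 to 5 held 1, 1 and 0. Of the 8 cysteine genes on other chromosomes, 6 were in states 1 to 5 in each group. In 19 of the 49 the start bin has fewer than 50% unique words, and the median over the 49 is 65.5%, against 87.5% for the 8 genes elsewhere. None of the 30 with at least 50% unique words was in state 1 or 2 in any group. Within the family n-TCgca37, n-TCgca10 and n-TCgca4 passed from state 8 to state 6 between SD 3m and SD 12m, with 11 of 11 bins each, and were in state 8 with 11 of 11 bins in CR 12m, as in SD 3m.

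On chromosome 1, between 171033942 and 171111515 near Fcgr3, 25 tRNA genes for asparagine, aspartate, glycine, leucine, glutamate and valine showed like genes in unlike states. In the middle lie 3 tandem arrays of 5 genes each, in which 0 to 25% of the words in the start bins are unique. Among these 15 genes SD 3m had 13 in state 8 and 2 in state 5, SD 12m had 11 in state 7 and 4 in state 8, and CR 12m had 13 in state 6 and 2 in state 8. The 10 genes on both sides have at least 82.0% unique words. All 10 were in states 1 to 5 in SD 3m (9 in states 1 and 2) and in SD 12m, and 9 of them in CR 12m. n-TDgtc4, outside the arrays, was in state 2, 3 and 3, and n-TDgtc3, of identical sequence and inside, in state 8, 7 and 6. n-TGtcc2 was in state 1 throughout, and its identical copy n-TGtcc5 in state 8, 7 and 6. Few reads of 50 bp can be placed in the arrays, and the part of this in the contrast was not tested.

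Of the 95 tRNA genes that began in state 8, 16 were found in state 7 in SD 12m (16.8%, interval 10.6 to 25.6, all gene starts 7.66%) and 10 in state 6 (10.5%, all gene starts 18.1%). In CR 12m 3 were in state 7 (3.16%, all gene starts 2.53%) and 16 in state 6 (16.8%, all gene starts 12.5%). In SD 12m 15.8% of all state 8 bins of the autosomes had passed to state 7, close to the share of tRNA genes. Without the arrays of chromosome 1, a subset chosen after seeing the data, 82 genes remained, of which SD 12m had 7 in state 7 (8.54%) and 10 in state 6 (12.2%), while CR 12m had 3 in state 7 (3.66%) and 5 in state 6 (6.1%). Outside the arrays the share that passed to state 7 in SD 12m was thus close to that of all gene starts, and the share that passed to state 6 in CR 12m was below it. All 9 genes with the sequence of states 8, 7 and 6 lie in the arrays of chromosome 1. Outside them n-TKctt7 (lysine, chr1:110904747, minus strand), a lone gene inside Cdh19 with 74.5% unique words, went from 11 bins of state 8 to 11 of state 7 in SD 12m and 10 in CR 12m. n-TDgtc1 (aspartate, chr5:100992874, minus strand), with a sequence of its own, went from 10 bins of state 8 to 11 of state 6 in both older groups. It differs from the 13-copy aspartate sequence shown above by 3 substitutions (G39A, G41A and C66T).

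At 53 tRNA genes every bin within 1 kb was in state 8 in all 3 groups. The same count was not made over other gene starts. At the start bin alone, state 8 held 24.6% of tRNA genes and 35.2% of all gene starts in SD 3m. The 4 farthest from other genes were n-TEctc2 (glutamate, 423111 bp from the nearest start), n-TLcag1 (leucine, 223083 bp, inside Naaladl2), n-TTagt2 (threonine, 167826 bp) and n-TVcac1 (valine, 130559 bp). Each is the only gene of its sequence. At least 93.5% of the words in their start bins are unique, so that reads could be placed there. Of the 4, n-TEctc2 holds the B box letters GTTCNANNC and the other 3 do not.

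The genes of the machinery that makes and uses tRNAs were examined at their own starts from a list chosen for its function. Of the 59 genes, 57 were in states 1 and 2 in SD 3m, against 51 in SD 12m and 48 in CR 12m, and 58, 58 and 57 were in states 1 to 5. Of the 6 subunits of TFIIIC, 6, 5 and 5 were in states 1 and 2, with Gtf3c3 passing from state 1 to 4 and 6. The 6 genes of TFIIIB, TFIIIA and Maf1, the repressor of RNA polymerase III, were in state 1 in all groups. Of the 14 genes for processing and export 13, 11 and 9 were in states 1 and 2, and of the 20 cytosolic aminoacyl-tRNA synthetases 19, 18 and 17. Of the 57 genes of the list in states 1 and 2 in SD 3m, 9 were in neither in CR 12m, where 29.8% of all gene starts had left them, and 46 of the 57 had been in state 1, which holds 66 of the 172 tRNA genes.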

How the data were processed

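Chromatin of formalin-fixed, paraffin-embedded livers was immunoprecipitated for 4 histone marks. The authors aligned 50 bp reads to mm10 (BWA 0.6.2-r126), removed reads with mapping quality under 1, reads outside chromosomes 1 to 19 and X and duplicates (SAMtools 0.1.18), merged the libraries of each group (bamtools 2.5.1) and segmented the genome with ChromHMM 1.17. The deposited value is a state label from 1 to 8 per 200 bp bin, neither a count nor a signal, so the depth behind a label is unknown. The last bin of all 20 chromosomes was the last whole bin of GRCm38.p6.

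Groups follow the sample labels. The start of each RefSeq tRNA gene was assigned to its bin in Python 3.11.15 with numpy 2.4.6, pandas 2.3.3 and scipy 1.17.1, and figures were drawn in matplotlib 3.10.9. Uniqueness is the percent of 50-base words found only at that place on either strand of the assembled chromosomes. The functions were tested on simulated segmentations. With 1 segmentation a group, no test was run, and Wilson intervals are given. Genes were named by rules on their states and bins within 1 kb, with all methionine genes and the 3 largest loci, and those with a described family or array were added after their values were seen. The members, lists and rules were chosen with earlier results of these data known. Alternatives were the state at the gene middle, any bin or the most frequent state within 1 kb, subsets of genes, and merged states. Some items are not reported here.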

Additional observations from a re-analysis of the deposited data

How the results depend on the processing

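The order SD 3m above SD 12m above CR 12m for states 1 and 2, and the reverse order for states 3 to 5, held in 10 of 10 settings, the reported one included, and the share with another state than in SD 3m was larger in CR 12m than in SD 12m in 11 of 11. Of 101 alternative values, 72 stayed within the Wilson interval of the reported value and 29 did not. With any bin within 1 kb, states 1 and 2 held 50.5%, 42.7% and 36.0% of genes in SD 3m, SD 12m and CR 12m, states 3 to 5 held 36.8%, 51.6% and 58.5%, and state 8 held 29.3%, 28.5% and 32.4%. With only genes at least 5 kb from other gene starts, states 1 and 2 held 29.4%, 20.6% and 11.4%, state 8 held 36.4%, 32.9% and 37.7%, and 34.2% (SD 12m) and 46.1% (CR 12m) had another state than in SD 3m. With only start bins of at least 50% unique words, states 1 and 2 held 50.3% in SD 3m and state 8 held 17.0%, 17.3% and 20.5%. Without the cysteine genes of chromosome 6, chosen after seeing the data, states 1 and 2 held 51.0% in SD 3m, states 3 to 5 held 41.2% in CR 12m and state 8 held 18.1%, 13.6% and 16%. With 1 gene for each sequence, also added later, 47.1% had another state in CR 12m, and with the states merged into 5 classes 27.7% (SD 12m) and 39.4% (CR 12m) had. The cause of these shifts was not tested, apart from the subsets named. No tRNA gene here is annotated as a pseudogene or without an amino acid, so that leaving such genes out was not run. No paired analysis was possible because no result comes from a test. Depth is unknown, and 1 segmentation a group leaves differences between groups without a replicate check.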
